A study of Mus musculus with 20 samples.

Results

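Retinoid signalling was followed through 9 genes in mouse serotonin (5-HT) neurons: the cellular retinoic acid binding proteins Crabp1 and Crabp2, the enzymes Dhrs3 and Cyp26b1, the retinoic acid receptors Rara, Rarb and Rarg, and the retinoid X receptors Rxra and Rxrg. They are 9 of the 22556 genes in the stage matrix and were taken by symbol. The genes were chosen from their expression values in these same libraries, that is, their levels in the 9 wild-type libraries and their group values in both knockout tables, so all values of these genes are descriptions and carry no test. The expression data come from EYFP+ serotonin neurons of C57BL/6 mice, isolated by flow sorting. Wild-type neurons were taken at E11.5 and E15.5, which are embryonic days, and at postnatal days 1 to 3 (PN), with 3 libraries each amplified by the Clontech SMARTer method, and Pet-1-/- neurons were compared with wild type at E15.5, with 3 libraries a group, once with the Clontech method and once with the NuGEN Ovation method. Pet-1 is the ETS transcription factor encoded by Fev that drives the serotonin neuron programme. Binding was mapped in 1 anti-Myc immunoprecipitation and 1 input from hindbrain tissue of Pet-1-/- embryos. These carried the transgenes ePet-mycPet-1, which supplies a Myc-tagged Pet-1 in place of the lost gene, and ePet-EYFP, both named for the ePet element that drives expression in serotonin neurons. The labels of these embryos differ on age, with E12.5 to E14.5 in one place and up to E15.5 in another, and one field calls them wild type. The labels do not say whether libraries of a group came from separate animals, or whether animals were pooled, so p-values below measure the spread between these libraries, which may be technical.

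Retinoic acid is made from retinol in successive oxidations, by retinol dehydrogenases and then by retinal dehydrogenases of the Aldh1a group. Dhrs3 reduces retinal back to retinol, and the Cyp26 enzymes break retinoic acid down. In the cytoplasm the acid is held by Crabp1 and Crabp2, and Crabp2 is known for passing it to nuclear receptors. There a retinoic acid receptor paired with a retinoid X receptor binds repeats of a short half-site in DNA, and Rarb is a textbook target that carries such a repeat at its own promoter. In the embryonic hindbrain, retinoic acid is known for patterning the rhombomeres along the head-to-tail axis.

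Values are FPKM, the fragments of a transcript scaled to its length and to the library's mapped fragments, as deposited for each library. Libraries of a stage are called a, b and c in column order, which carries no replicate number. Across the 9 libraries the FPKM values summed to between 630091 and 919994, and 9614 to 11280 genes reached 1 FPKM. Read depth is unknown, because the files give no counts. The markers of serotonin neurons summed to 934 to 1388 FPKM at E11.5, 461 to 554 FPKM at E15.5 and 476 to 732 FPKM in PN, and all 8 were at or above a mean of 1 FPKM at each stage. Markers of other cells moved with stage. The 8 astrocyte and radial glia markers summed to 143 to 228, 940 to 1774 and 382 to 1059 FPKM in the order E11.5, E15.5 and PN. The 7 microglia markers summed to 7.33 to 14.1, 6.28 to 20.2 and 102 to 891 FPKM. The 5 oligodendrocyte lineage markers summed to 0.461 to 3.11, 12.7 to 63.1 and 11.1 to 13.9 FPKM, with the 63.1 FPKM in E15.5 library b. The 10 markers of other hindbrain neurons summed to 1.27 to 5.30, 7.40 to 10.6 and 19.7 to 70.5 FPKM, with the 70.5 FPKM in PN library b. PN library b also stood apart with the 891 FPKM of microglia markers, against 102 and 113 FPKM in the other 2 PN libraries. In bulk libraries such as these, fewer cells of a type and less RNA per cell cannot be told apart.

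Of the pair of cellular retinoic acid binding proteins, Crabp2 was the one with the high level at E11.5. Its FPKM was 222, 134 and 118 at E11.5 in libraries a, b and c, then 8.30, 2.65 and 3.04 at E15.5, and 1.93, 1.32 and 1.29 in PN. Every E11.5 library was above every E15.5 library, and every E15.5 library above every PN library. Mean levels were 158 ± 55.7, 4.66 ± 3.16 and 1.51 ± 0.365 FPKM (SD, n = 3 each). By mean level Crabp2 ranked 850 of 22542 genes at E11.5, 6689 at E15.5 and 10332 in PN. On the scale of log2(FPKM + 1) used for all differences between stages, Crabp2 was lower at E15.5 than at E11.5 by 4.89 (log2 difference -4.89, SE 0.40). From E15.5 to PN the log2 difference was -1.05 (SE 0.40), and over the whole span -5.94 (SE 0.40). A gene was tested if 3 or more libraries reached 1 FPKM. Of the 11741 genes that did so, 1 had a more negative difference from E11.5 to PN.

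Crabp1, the paralogue known for holding retinoic acid in the cytoplasm, had its higher values in the later libraries, with wide scatter. It was at 0.0863 FPKM in E11.5 library a and listed at 0 in the other 2. At E15.5 it was listed at 0 in libraries a and b and at 1.33 FPKM in library c. In PN it was at 4.48, 0 and 3.46 FPKM in libraries a, b and c. The groups overlapped in all 3 intervals. E15.5 libraries a and b were at 0 as 2 of the E11.5 libraries were, and so was PN library b, the library with the most microglia marker signal. The log2 difference from E11.5 to PN was 1.5 (SE 0.56). It was 2.27 without PN library b, 1.04 without PN library a and 1.19 without PN library c. In PN libraries a and c Crabp1 made up 69.9% and 72.9% of the summed FPKM of the pair, whereas Crabp2 was 100% of it in PN library b. At E11.5 the Crabp1 share was at most 0.0389%.

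Dhrs3, the retinal reductase, was listed at 0 in all 3 E11.5 libraries. At E15.5 it was at 7.68, 10.1 and 5.75 FPKM in libraries a, b and c, and in PN at 8.73, 6.85 and 1.65 FPKM. All later libraries were thus above all E11.5 libraries, and the E15.5 and PN groups overlapped. Because the earlier group is listed at 0, no fold is given for E11.5. The log2 difference from E15.5 to PN was -0.56 (SE 0.46). By mean level Dhrs3 ranked 5342 of 22542 genes at E15.5 and 6395 in PN. The astrocyte and radial glia markers were also higher at E15.5 than at E11.5, with 4 called higher and 1 lower of the 7 tested. Their part in the Dhrs3 values was not tested. The 13 markers of vascular, meningeal and choroid plexus cells summed to 2.28 to 2.67 FPKM at E11.5, when 8 of them, among them Col1a1, Pecam1 and Cldn5, were at 0 in all libraries. They summed to 5.77 to 8.84 FPKM at E15.5 and to 1.61, 7.13 and 4.04 FPKM in PN libraries a, b and c. Their part in the Dhrs3 values was likewise not tested.

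Cyp26b1, the cytochrome P450 that clears retinoic acid, stayed below 1 FPKM in every library. It was at 0.0102, 0.391 and 0.349 FPKM at E11.5, at 0.844, 0.587 and 0.569 FPKM at E15.5, and at 0.0244, 0.303 and 0.436 FPKM in PN. The 3 E15.5 libraries were the highest of the 9. With means of 0.250 ± 0.209, 0.667 ± 0.154 and 0.254 ± 0.210 FPKM (SD, n = 3 each), it did not pass the filter on low values.

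**Figure D1:**
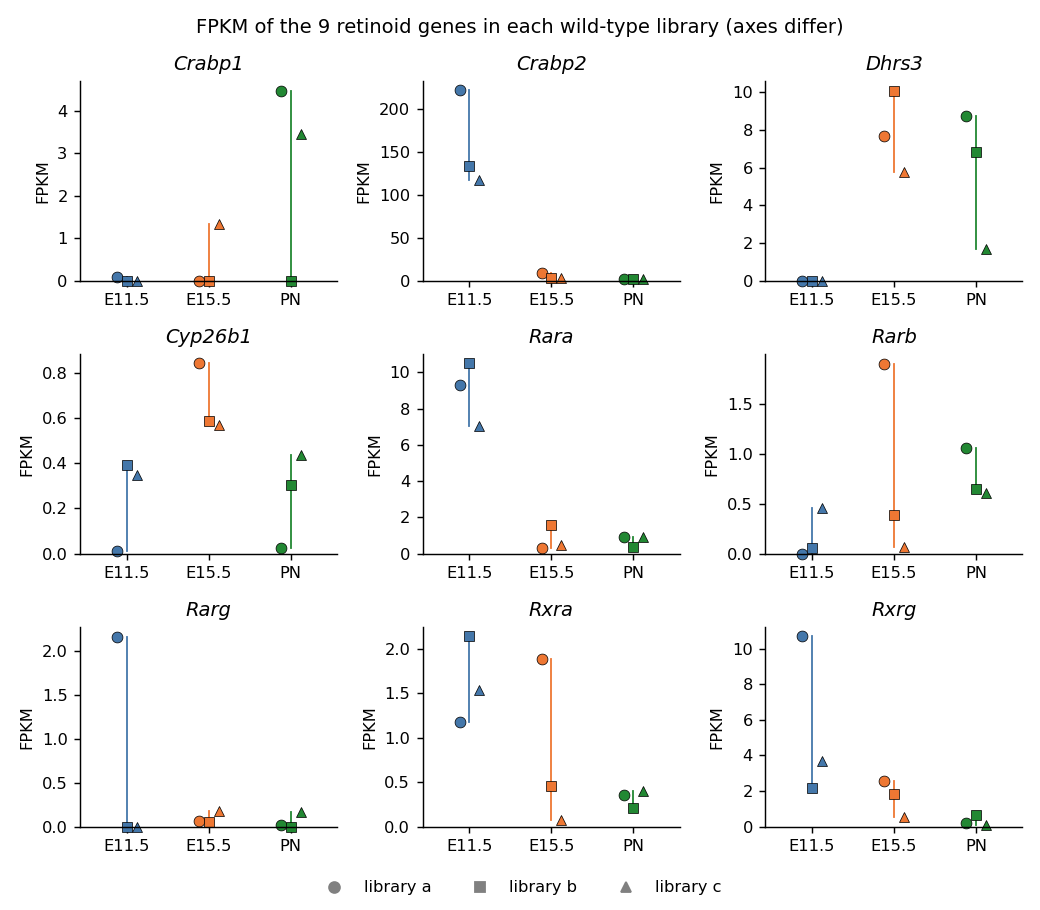
FPKM (vertical axes, scaled separately for each gene and starting at 0) of the 9 genes at E11.5, E15.5 and PN (horizontal axes) in wild-type neurons, with 1 point per library, shaped by library letter, and a line from the lowest to the highest library. Crabp2 and Rara were highest in all 3 E11.5 libraries, Dhrs3 was listed at 0 there, and single libraries set the spread of Rarg at E11.5 (2.16 FPKM in library a) and of Rarb at E15.5 (1.90 FPKM in library a).

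Among the retinoic acid receptors, Rara was the main isotype at E11.5. It was at 9.30, 10.5 and 7.05 FPKM in E11.5 libraries a, b and c, at 0.320, 1.55 and 0.494 FPKM at E15.5, and at 0.924, 0.348 and 0.930 FPKM in PN. The lowest E11.5 library was above the highest library of both later stages, and the E15.5 and PN groups overlapped. The means were 8.95 ± 1.75, 0.787 ± 0.665 and 0.734 ± 0.334 FPKM (SD, n = 3 each). The log2 difference was -2.52 (SE 0.36) from E11.5 to E15.5 and, at the same 2 decimals, -2.52 (SE 0.36) from E11.5 to PN.

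Rarb, the isotype that is itself induced by retinoic acid, had low values at E11.5. Its FPKM was 0, 0.0540 and 0.457 at E11.5, 1.90, 0.390 and 0.0695 at E15.5, and 1.06, 0.649 and 0.605 in PN. All PN libraries were above all E11.5 libraries, and the E15.5 libraries spanned both groups. Rarg was at 2.16 FPKM in E11.5 library a and listed at 0 in libraries b and c. It was at 0.0611, 0.0499 and 0.173 FPKM at E15.5 and at 0.0127, 0 and 0.169 FPKM in PN, so that E11.5 library a alone exceeded 1 FPKM. Neither Rarb nor Rarg passed the filter on low values.

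The summed FPKM of the 3 receptors was 9.84 ± 2.07 at E11.5, 1.67 ± 0.820 at E15.5 and 1.57 ± 0.516 in PN (SD, n = 3 each), and the lowest E11.5 sum, 7.51, was above the highest later sum, 2.28. As a share of this sum, Rara was 81.2%, 99.5% and 93.9% in E11.5 libraries a, b and c. In PN it was 46.2%, 34.9% and 54.6%, and Rarb was 53.2%, 65.1% and 35.5%. The E15.5 libraries disagreed with each other: Rara was 14.0% in library a, where Rarb was 83.3%, but 77.9% and 67.1% in libraries b and c. The isotype in the lead at E15.5 therefore differs between libraries, and with sums of 0.736 to 2.28 FPKM small absolute values set these shares.

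Retinoid X receptors pair with the retinoic acid receptors and with several other nuclear receptors. Rxrg was at 10.7, 2.18 and 3.71 FPKM at E11.5, at 2.58, 1.82 and 0.557 FPKM at E15.5, and at 0.179, 0.635 and 0.0951 FPKM in PN. All E11.5 libraries were above all PN libraries, while the E15.5 group overlapped both. Its log2 differences were -1.16 (SE 0.48) from E11.5 to E15.5, -0.97 (SE 0.48) from E15.5 to PN and -2.12 (SE 0.48) over the span. By its mean Rxra was below Rxrg at E11.5 and E15.5, and in PN the means were 0.324 ± 0.0980 FPKM for Rxra and 0.303 ± 0.290 FPKM for Rxrg (SD, n = 3 each). The Rxra libraries were at 1.17, 2.14 and 1.54 FPKM at E11.5, then at 1.88, 0.452 and 0.0687 FPKM, and in PN at 0.359, 0.213 and 0.400 FPKM. As for Rxrg, the E11.5 and PN groups did not overlap, and the log2 difference between them was -0.97 (SE 0.37).

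The remaining isotype, Rxrb, is not among the 9 genes and was not called by limma in any interval. It was at 4.27 ± 3.21 FPKM at E11.5, 6.14 ± 2.03 at E15.5 and 5.96 ± 5.86 in PN (SD, n = 3 each). With it the retinoid X receptors summed to 11.4 ± 5.21, 8.60 ± 3.53 and 6.59 ± 5.80 FPKM (SD, n = 3 each), and the groups overlapped. Rxrg was 68.0%, 38.9% and 28.7% of this sum in E11.5 libraries a, b and c, and 1.35%, 17.2% and 3.36% in PN. Rxrb was 59.7% to 86.2% at E15.5 and 77.0% to 95.9% in PN, above its 23.0% to 59.4% at E11.5 in every library.

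**Figure D2:**
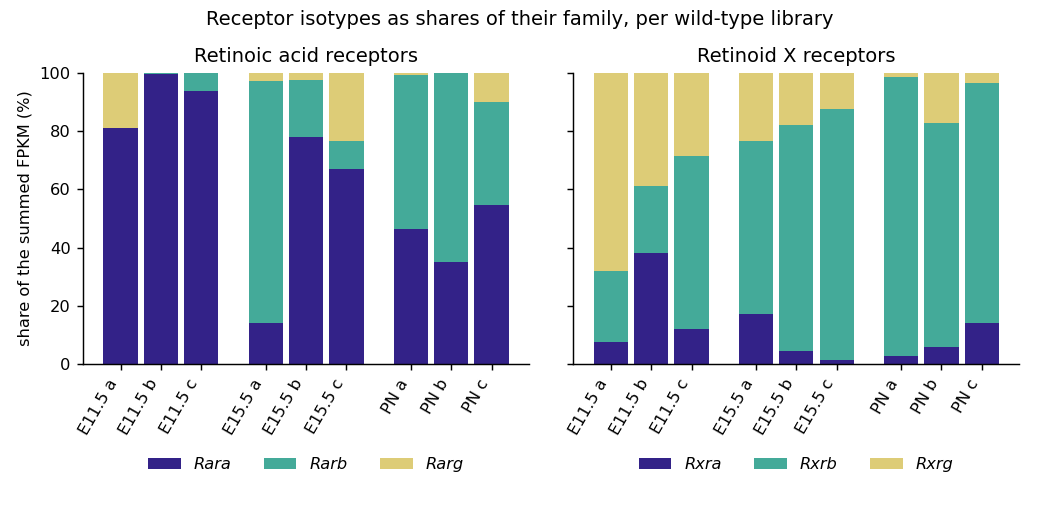
Share in percent (vertical axis) of each isotype in the summed FPKM of its receptor family in each wild-type library (1 bar per library, horizontal axis), for the retinoic acid receptors on the left and the retinoid X receptors on the right. Rara made up at least 81.2% of its family in the E11.5 libraries, Rarb 35.5% to 65.1% in PN, and Rxrb at least 77.0% of its family in PN.

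At E11.5 the order of mean levels was Crabp2, Rara, Rxrg and Rxra, with the other 5 genes below 1 FPKM on average. Crabp2 was above every other member in every E11.5 library, the ranges of Rara and Rxrg overlapped, and those of Rara and Rxra did not. At E15.5 Dhrs3 led Crabp2, with overlapping ranges, and the ranges of Rxrg, Rxra, Rara and Rarb below them overlapped as well. This order is that of the Clontech libraries. In the authors' NuGEN wild-type group at E15.5, Crabp2 was at 2.56 FPKM and Dhrs3 at 2.43. Rxrg, at 0.140 FPKM, was there below Rxra (0.952) and Rara (0.781). In PN the order by mean was Dhrs3, Crabp1, Crabp2, Rarb and Rara. The ranges of the first 3 overlapped in PN, as did those of Rarb and Rara, and Crabp2 was above Rarb in every library. FPKM is a value per length of transcript, and this comparison between genes rests on that scaling alone. The place of Rxrg at E15.5 differed between the methods, so an order is that of the method used.

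In all, 6 of the 9 genes passed the filter, and Rarb, Rarg and Cyp26b1 did not. The call rule applied to every gene was a Benjamini-Hochberg adjusted p from limma below 0.05 with a difference of at least 1.5-fold. From E11.5 to E15.5, 3 of the 6 that passed the filter were past the rule. Dhrs3 had the higher level at E15.5, and Crabp2 and Rara had the lower. Of the 11741 genes tested, 28.9% were past it in either direction. From E15.5 to PN 0 of the 6 were past it, where 20.2% of genes tested were. Without PN library b Crabp1 was past it in that interval. From E11.5 to PN 4 were past it, Dhrs3 with the higher level in PN and Crabp2, Rara and Rxrg with the lower, where 27.4% of genes tested were. These counts only describe the genes, since the same values chose them. All 9 can be described by whether the groups overlapped. In the first interval Dhrs3 and Cyp26b1 were higher in all later libraries and Crabp2 and Rara lower, as 15.2% and 10.6% of 22542 genes were. In the second, 0 were higher and Crabp2 and Cyp26b1 were lower, as 14.6% and 11.6% of all genes were. Over the span Dhrs3 and Rarb were higher, and Crabp2, Rara, Rxra and Rxrg lower, as 16.2% and 9.21% of all genes were. The intervals share their libraries, so they are not independent of each other.

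Over the 9 wild-type libraries, which are 3 stages of 3 libraries and so share their stage, Crabp2 and Rara had a Pearson r of 0.930 on the log2 scale, and Dhrs3 and Rara one of -0.892. Among all 11741 genes tested, the pair nearest to Crabp2 were Scube1, which encodes a secreted protein, and 2010204K13Rik (r = 0.993 and 0.989, n = 9). Scube1 had means of 5.26, 0.687 and 0.0495 FPKM from E11.5 to PN. Nearest to Rara were the Polycomb gene Cbx2 and the tetraspanin gene Cd151 (r = 0.987 each, n = 9), with Cd151 at means of 57.2, 11.6 and 12.1 FPKM. Nearest to Dhrs3 were Wfdc12 (r = 0.979), also listed at 0 in the E11.5 libraries, and the chemokine gene Ccl27a (r = 0.969, n = 9), with means of 47.7, 314 and 249 FPKM. The closest to Rxrg were the ribosomal protein gene Rpl37 (r = 0.989) and Sra1 (r = 0.978, n = 9). For Rxra they were Mtmr10 and Ush1c (r = 0.940 and 0.903, n = 9), and for Crabp1 Stxbp5 and Zmynd10 (r = 0.965 and 0.964, n = 9). These are the extremes of 11741 values each and are given as a description.

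The loss of Pet-1 was read from the authors' deposited tables, which give 1 FPKM value per group of 3 libraries and no value per library, so no spread can be shown. Fev, the targeted gene, was at 31.1 FPKM in wild type and 0.422 in the knockout with the Clontech method, and at 34.9 and 0.308 FPKM with the NuGEN method, in the authors' deposited tables. Of the 9 genes, Dhrs3 was the one past the call rule given below in both tables, with the lower value in the knockout. In the authors' deposited table for Clontech it was at 6.96 FPKM in wild type and 0.387 in the knockout, 18.0-fold lower. In the authors' deposited table for NuGEN it was at 2.43 and 0.530 FPKM, 4.59-fold lower. The wild-type level itself thus differed between the methods.

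Beside these values, the astrocyte and radial glia markers summed to 1363 FPKM in wild type and 473 in the knockout with Clontech, with all 8 lower, and to 151 and 296 FPKM with NuGEN, with 4 higher and 4 lower. The vascular, meningeal and choroid plexus markers summed to 7.43 and 1.65 FPKM with Clontech and to 0.848 and 1.63 FPKM with NuGEN. The NuGEN sum of the glial list was set by Fabp7 (135 and 284 FPKM). The other 7 markers of that list summed to 15.6 FPKM in wild type and 12.2 in the knockout with NuGEN. They were mixed, with the 4 lower genes beside Sox2 (2.55 and 3.91 FPKM), Aqp4 (0.0747 and 0.270 FPKM) and Gfap, which were higher. The oligodendrocyte lineage markers summed to 28.8 and 24.8 FPKM with Clontech and to 7.04 and 13.5 FPKM with NuGEN. Microglia markers summed to 9.96 and 1.69 FPKM, then to 2.19 and 1.23 FPKM. Markers of other hindbrain neurons summed to 8.72 and 5.16 FPKM with Clontech and to 3.36 and 3.58 FPKM with NuGEN. Those of serotonin neurons, which include the targeted gene Fev, summed to 516 and 229 FPKM with Clontech and to 1039 and 404 FPKM with NuGEN. By value 7 of these 8 markers were lower in the knockout with Clontech and 8 with NuGEN. The part of any of these cells in the Dhrs3 values was not tested.

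None of the other 8 genes was past the rule with either method in the authors' deposited tables. Crabp2 was at 4.41 FPKM in wild type and 2.29 in the knockout with Clontech, and at 2.56 and 2.95 FPKM with NuGEN, so its order turned with the method. The same was true of Rarb (0.777 and 0.449 FPKM, then 0.336 and 0.632), Rarg (0.120 and 0.237, then 0.177 and 0.0997), Rxra (0.748 and 0.906, then 0.952 and 0.655) and Rxrg (1.49 and 0.588, then 0.140 and 1.26). Crabp1 had the higher value in the knockout with both, at 0.419 and 1.38 FPKM with Clontech and 0.0159 and 0.829 FPKM with NuGEN. Rara was also higher by value in both knockouts, at 0.766 and 1.02 FPKM and at 0.781 and 1.29 FPKM, and so was Cyp26b1, at 0.723 and 1.4 FPKM and at 0.942 and 1.71 FPKM. The rule for the authors' deposited tables asked for a q-value below 0.05, a ratio of 1.5 or more and a group that reached 1 FPKM. With Clontech, 0 of the 9 genes were past it on the higher and 1 on the lower side, where 0.794% and 1.53% of 13223 genes were. With NuGEN the counts were also 0 and 1, where 6.74% and 3.75% of 13372 genes were. Rarg was not tested by the authors in either.

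**Figure D3:**
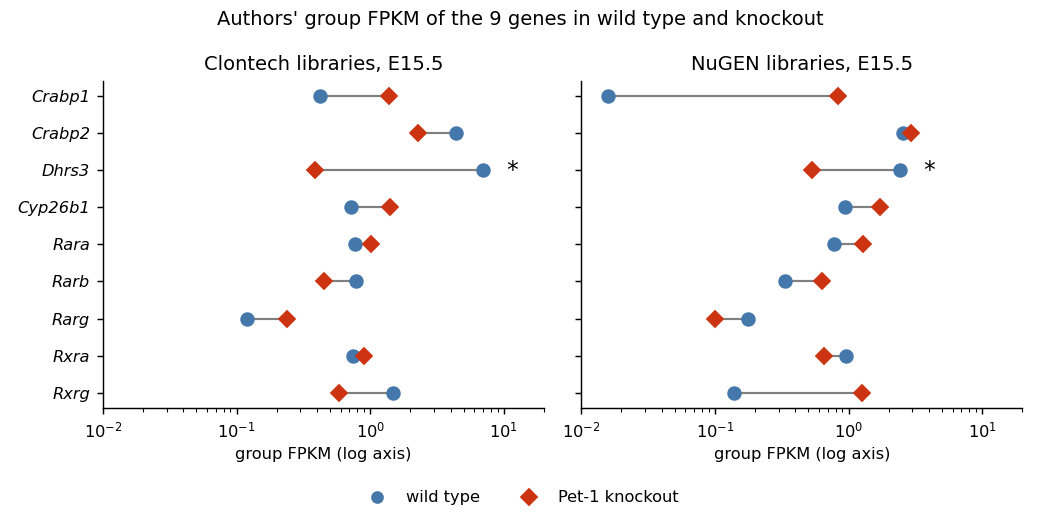
Group FPKM (horizontal log axis) of the 9 genes at E15.5 in wild type (circles) and Pet-1-/- (diamonds), from the authors' deposited tables, with the Clontech method on the left and NuGEN on the right. A star marks the values past the call rule, which are those of Dhrs3 with both methods, and the order of wild type and knockout turned between methods for Crabp2, Rarb, Rarg, Rxra and Rxrg.

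Binding of the tagged Pet-1 was read from 4934 deposited peaks in mm10 coordinates, with the authors' peak scores from 50 to 3133.0 (median 88.3). A peak lay within 5 kb of 1 of the 9 genes, as it did for 25.3% of the 22258 genes with a RefSeq position. That gene was Rara, with a peak inside its span at chr11:98941841-98942582, 2.5 kb from the nearest annotated start and with a score of 55.6, near the low end of the list. The peak nearest to Crabp2 was 17.9 kb from the gene, at chr3:87971301-87972038 (score 72.9). For the others the nearest peak lay 51.1 kb (Rxrg), 64.5 kb (Rarb), 90.0 kb (Crabp1), 92.8 kb (Rarg), 136 kb (Rxra), 535 kb (Dhrs3) and 596 kb (Cyp26b1) away. Dhrs3 and Cyp26b1 were thus the 2 farthest from a peak, and a link of this distance to the knockout values was not tested. With 1 immunoprecipitation there is no replicate of any peak.

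Promoters were examined because retinoid receptors bind paired half-sites and Rarb is a known target of its own family. RefSeq windows (GRCm38.p6) from 250 bases before to 50 bases after a gene start were found for 8 of the 9 genes, 16 windows in all. The half-sites searched were AGGTCA or AGTTCA or GGGTCA or GGTTCA on both strands, in direct repeats spaced by 5, 2 or 1 bases (DR5, DR2 and DR1). The ETS motif searched was GGAAGT on both strands. The sequences below run 5′ to 3′ along the gene, with half-sites, repeats and GGAAGT in capitals. The Rarb window is shown for its repeat, and the Rara window, the one nearest to the peak, for its single half-sites.
Rarb (chr14:16575427-16575726, minus strand): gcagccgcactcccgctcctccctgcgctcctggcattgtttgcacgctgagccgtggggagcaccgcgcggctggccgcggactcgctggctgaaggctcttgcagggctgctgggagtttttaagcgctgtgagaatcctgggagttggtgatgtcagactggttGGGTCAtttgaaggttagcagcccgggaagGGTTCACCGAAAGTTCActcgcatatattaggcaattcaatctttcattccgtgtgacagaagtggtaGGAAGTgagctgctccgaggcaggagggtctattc
Rara (chr11:98939461-98939760, plus strand): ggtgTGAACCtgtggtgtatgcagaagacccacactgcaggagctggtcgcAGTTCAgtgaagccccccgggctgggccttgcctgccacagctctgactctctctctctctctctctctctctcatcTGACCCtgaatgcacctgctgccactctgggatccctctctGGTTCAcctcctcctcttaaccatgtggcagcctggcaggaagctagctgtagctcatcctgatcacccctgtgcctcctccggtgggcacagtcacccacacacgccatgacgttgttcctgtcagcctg

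Of the 8 genes, 1 held a direct repeat, which was the DR5 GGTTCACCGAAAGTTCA of Rarb at chr14:16575513-16575529, beginning 53 bases before the start. By window this is 1 of the 16, and a DR5, DR2 or DR1 was found in 0.588% of all 32851 windows, and a DR5 in 0.0974%. The Rarb repeat was known beforehand and some windows of a gene overlap, so no enrichment is read from this count. The Rara window held 4 half-sites, on either strand, and no pair at these spacings. A half-site was found in 7 of the 16 windows and in 43.7% of all windows. GGAAGT was found in 2 of the 16 windows, 1 of Rarb and 1 other window of Rara, and in 23.8% of all windows. The 3 Dhrs3 windows held none of these motifs on either strand. A match is a description of the sequence and not of binding, and Rarb itself was at or below 1.90 FPKM in every library.

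The other genes of the pathway give the setting. Of 63 listed genes for retinol transport, retinoid enzymes, receptors and their cofactors and known retinoic acid targets, 62 were in the matrix and 27 passed the filter. From E11.5 to E15.5, 3 of the 27 rose and 0 fell by limma, where 28.9% of the 11741 genes tested were called in either direction. At an unadjusted limma p below 0.05, 5 were higher and 7 lower. The median log2 difference was -0.31 against 0.11 for all genes tested. The split of calls turned with the scaling. With each library scaled to the same upper quartile, 2 were called higher and 4 lower (Dgat1, Fabp5, Dhrs4 and Nr2f1), and Thra was no longer called. From E15.5 to PN 2 rose and 4 fell (median 0.18 against 0.01), where 20.2% of all genes tested were called. Over the span 3 rose and 5 fell (median -0.15 against 0.08), where 27.4% of all genes tested were called.

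Of the retinol carrier and storage genes, 5 were tested, and 1 was called in the earlier and 1 in the later interval. From E11.5 to E15.5 their median log2 difference was -0.76 against 0.11 for all genes tested. At an unadjusted limma p below 0.05, 1 was higher and 3 lower in that interval. Ttr, the carrier of thyroxine and of retinol binding protein, was at 0, 0 and 0.0264 FPKM at E11.5 and at 1.19, 2.45 and 2.54 FPKM at E15.5. It rose with a log2 difference of 1.57 (SE 0.32, limma adjusted p = 0.00351), and over the span by 2.15 (SE 0.32, limma adjusted p = 0.000329). Ttr is abundant in choroid plexus, whose markers are in the list summed above, and their part was not tested. Dgat1, an acyltransferase that can esterify retinol, rose from 8.67 ± 5.64 FPKM at E15.5 to 36.5 ± 8.15 FPKM in PN (SD, n = 3, log2 difference 2.10, SE 0.41, limma adjusted p = 0.00439). Its E11.5 mean was 16.1 FPKM, and it was not called over the span (limma adjusted p = 0.0597).

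Of the dehydrogenases and reductases, 8 were tested. Rdh11, a retinal reductase, rose from 5.09 ± 3.12 to 17.7 ± 7.19 FPKM between E11.5 and E15.5 (n = 3, log2 difference 1.66, SE 0.49, limma adjusted p = 0.0243) and was also called over the span. Its call was lost in 4 of the 9 fits that left out 1 library, and over the span in 5 of 9, in both cases also with no filter, and over the span with both other scalings. Rdh14 rose from 13.7 ± 4.10 to 32.9 ± 6.72 FPKM between E15.5 and PN (n = 3, log2 difference 1.23, SE 0.33, limma adjusted p = 0.0205). Dhrs4 fell over the span from 35.7 ± 10.9 to 6.68 ± 1.49 FPKM (n = 3, log2 difference -2.23, SE 0.35, limma adjusted p = 0.000569), and from E15.5 to PN by 1.37 (log2). Adh5, a class III alcohol dehydrogenase and the most abundant of these 8, fell from 378 ± 26.0 to 192 ± 16.8 FPKM in the later interval (n = 3, log2 difference -0.98, SE 0.22, limma adjusted p = 0.00853). In that interval the calls of Dgat1, Adh5 and Nr2f2 were lost in 0 of the 9 fits that left out 1 library. Rdh14 was lost in 4 (without PN library b or c, or E15.5 library b or c), and Dhrs4 in 2 (without PN library b or E15.5 library a). Nr1h2 was lost in 5, without any 1 PN library or without E15.5 library a or b.

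The enzymes that make retinoic acid were not past the filter. Aldh1a1 was at most 0.314 FPKM in the embryonic libraries and at 7.89, 56.0 and 0.744 FPKM in PN libraries a, b and c. PN library b also had the highest PN sums of serotonin neuron markers (732 FPKM) and of vascular, meningeal and choroid plexus markers (7.13 FPKM). The same held for microglia, for astrocyte and radial glia, and for other hindbrain neuron markers, but not for the oligodendrocyte lineage. Th made up most of the sum of other hindbrain neuron markers in PN libraries a and b, at 12.1 and 64.7 FPKM. In PN library c it did not, at 3.42 of 19.7 FPKM. The part of these cells in the Aldh1a1 values was not tested. Aldh1a2 reached 0.997 FPKM in 1 library, Aldh1a3 0.0581 FPKM, and the clearing enzymes Cyp26a1 and Cyp26c1 were listed at 0 in all 9 libraries. Beside them Cyp26b1, with its 0.844 FPKM at most, was the one Cyp26 gene with signal in the stage matrix.

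Of the 7 cofactors and receptors outside the 9 genes, all were tested and 0 were called in any interval. At an unadjusted limma p below 0.05, 1 of the 7 were different from E11.5 to E15.5, 1 from E15.5 to PN and 0 over the span. Among partners of the retinoid X receptors, Thra, the thyroid hormone receptor alpha, rose from 9.26 ± 3.21 to 20.2 ± 6.92 FPKM between E11.5 and E15.5 (n = 3, log2 difference 1.04, SE 0.35, limma adjusted p = 0.0443), although the libraries overlapped, and reached 31.0 ± 4.51 FPKM in PN. The earlier of these calls was lost in 7 of the 9 fits that left out 1 library, with no filter and with upper quartile scaling (log2 difference 0.86), whereas the call over the span was lost in 0 of 9. Nr1h2, the oxysterol receptor LXR beta, was at 17.2, 34.5 and 10.2 FPKM in the E11.5 libraries and at 2.63, 4.64 and 3.86 FPKM in PN, and fell over the span (log2 difference -2.06, SE 0.45, limma adjusted p = 0.00447).

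Among 17 genes known to respond to retinoic acid, 3 were tested. The orphan receptor gene Nr2f1 fell over the span from 31.3 ± 9.39 to 10.1 ± 3.93 FPKM (n = 3, log2 difference -1.56, SE 0.35, limma adjusted p = 0.00490). Its paralogue Nr2f2 was at 73.1, 35.0 and 64.7 FPKM at E15.5 and at 9.79, 5.79 and 18.1 FPKM in PN, and fell between them (log2 difference -2.32, SE 0.43, limma adjusted p = 0.00324). Nr2f2 was also the pathway gene called in both knockouts, with 66.7 FPKM in wild type and 40.4 in the knockout with Clontech (q = 0.00391) and 106 and 58.0 FPKM with NuGEN (q = 0.00580) in the authors' deposited tables.

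In the authors' deposited table for NuGEN, 4 further pathway genes of the 34 tested were called higher in the knockout, where 6.74% of 13372 genes were. Among them were Fabp5, a fatty acid binding protein that also binds retinoic acid and was at 1393, 669 and 1437 FPKM in the E11.5 libraries of the stage series (521 and 855 FPKM, q = 0.0350), the retinol-oxidising Adh7 (0.629 and 2.50 FPKM, q = 0.00206) and Nr4a2, a partner of the retinoid X receptors (0.492 and 1.56 FPKM, q = 0.0150). With Clontech the authors' deposited table gave these 3 genes q-values of 0.898, 0.168 and 0.132, with knockout values above wild type for each. The difference between the methods was not tested.

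**Figure D4:**
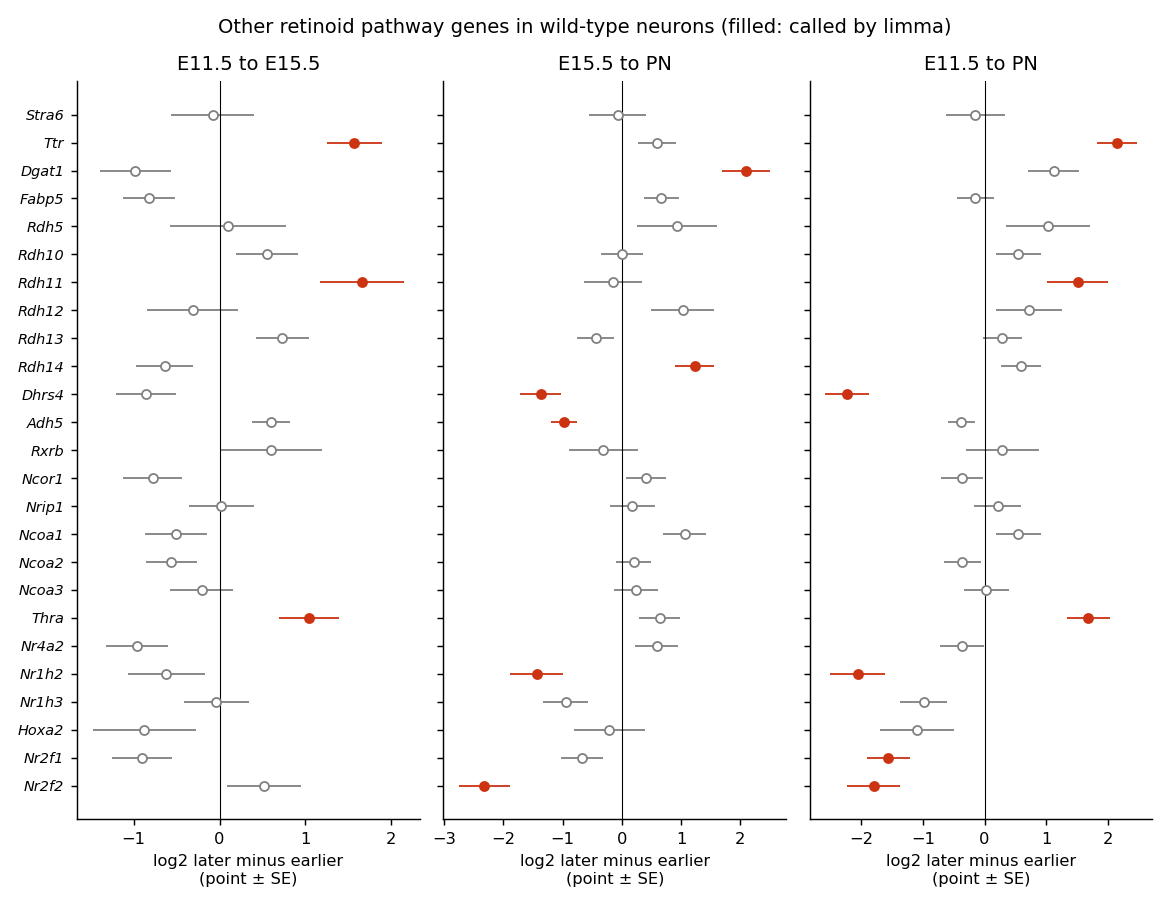
Log2 difference between stages, later minus earlier on the log2(FPKM + 1) scale with its standard error (horizontal axes), for 25 of the 27 tested pathway genes that are not among the 9 (vertical axis), in 3 panels for the 3 intervals. Filled points passed the call rule, 3 from E11.5 to E15.5, 6 from E15.5 to PN and 7 from E11.5 to PN, with Nr2f2 the lowest point of the middle panel (-2.32).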

How the data were processed

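Expression was measured by RNA sequencing in 18 libraries of sorted serotonin neurons, and Pet-1 binding by 1 immunoprecipitation with 1 input. The authors deposited FPKM per library for the stages and FPKM per group for the knockouts, with log2 fold changes, p-values and q-values in the form Cuffdiff writes, per the file headers. TopHat2, Cufflinks, BWA and MACS 1.4.2 are named in the submitters' processing notes, as are mm9 and mm10, with no role given. The peak list holds the authors' deposited score for each peak, and its coordinates are mm10 per the file headers and name. How the authors scaled libraries against each other is not stated. The stage matrix holds 3 more columns that match none of the samples, which were left aside. Its E15.5 columns carry no kit name, and the labels' protocol gives Clontech for the wild-type stage series. The knockout group values come from a separate run of the authors' software, and they differ slightly from the stage means.

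From these files, log2(FPKM + 1) was computed for 22556 genes, less 14 whose estimate had failed in the authors' table. The 11741 genes that reached 1 FPKM in 3 or more libraries were fitted together with limma 3.58.1 in R 4.3.3, with stage as the group, a mean-variance trend and 6 residual degrees of freedom. P-values were adjusted by Benjamini and Hochberg over all genes tested, and calls needed an adjusted p below 0.05 and 1.5-fold. Log2 differences on this scale understate the change of genes near 1 FPKM. The procedure was tested on simulated data. No depth could be recovered from the low FPKM values, so no counting interval is given. The 9 genes, the pathway lists and the marker lists were chosen with earlier results of these data known. Pathway genes were named if called in any interval or knockout, together with Rxrb, the Aldh1a enzymes, Cyp26a1 and Cyp26c1, except for 2 genes that are counted but not reported here by name. The 2 genes most like each tested gene of the 9 were named by Pearson r over the 9 libraries. Gene positions and promoter windows are from RefSeq (GRCm38.p6). Alternatives covered the pseudocount, filter, scaling, trend, each library left out, the knockout thresholds, the peak distance and score, and the half-sites searched.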

Additional observations from a re-analysis of the deposited data

How the results depend on the processing

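Of the 6 tested genes of the 9, those past the rule kept their direction under every alternative run, and 255 of their 270 recomputed log2 differences moved by less than the gene's residual SD between libraries in the full fit. The other 15 came from the smaller pseudocounts of 0.1 and 0.5 FPKM, which by construction widen differences of low genes. Upper quartile scaling took the pathway genes called from E11.5 to E15.5 from 3 higher and 0 lower to 2 higher and 4 lower, 6 in all, and the share of higher calls over all genes from 60.3% to 49.6%, as the median log2 difference went from 0.11 to -0.02. Median centring left that median at 0.11, and took the calls from E15.5 to PN over all genes from 1249 higher and 1121 lower to 1100 and 1336. Leaving out 1 library at a time gave 1 to 4 pathway genes called from E11.5 to E15.5, with 1 without E11.5 library c or E15.5 library b, and 3 to 8 from E15.5 to PN, with 3 without PN library b. In that interval 0 to 1 of the 9 genes was past the rule, the 1 being Crabp1 without PN library b. Over all genes the 2370 calls from E15.5 to PN ranged from 1325 to 2960, with 1325 without PN library a, 1517 without PN library b, 1410 without E15.5 library a and 1551 without E15.5 library c. The cause of these shifts was not tested. At a q-value below 0.01 the NuGEN knockout table gave 2 pathway genes rather than 5 and 0 of the 9 genes rather than 1, so that the Dhrs3 call with NuGEN was lost. Extending gene spans by 50 kb gave 2 genes with a peak, a peak score of at least 100 gave 0, and AGGTCA as the one half-site gave 0 genes with a repeat. Single pathway genes lost their call in 36 of 255 recomputed values. No called difference changed sign. Small differences that were not called did: Crabp1 from E11.5 to E15.5 went from 0.37 to -0.04 without E15.5 library c, and from E15.5 to PN Dhrs3 went from -0.56 to 0.01 without PN library c and Rxra from -0.32 to 0.09 without E15.5 library a. No paired analysis was possible because the columns of the stage matrix carry no replicate numbers and the knockout tables hold groups. Depth is unknown, and genes below 1 FPKM (Rarb, Rarg and Cyp26b1 in most libraries) could not be tested.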
